A study of Bos taurus with 20 samples.

Results

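Lactotransferrin (LTF) was described across 20 whole bovine conceptuses as 1 gene, ENSBTAG00000001292, of 27607 annotated genes. The gene was selected on its measured levels in conceptuses from embryos exposed to interleukin 6 (IL6), so its levels by treatment and by title code are a description and were not tested. Its locus is chromosome 22, 52952571 to 52986619, on the + strand of ARS-UCD1.2, with 17 exons of 3112 bases in all and no other annotated gene overlapping it. The files give identifiers without names, and the name LTF rests on this position. The RefSeq table for ARS-UCD2.0 also lists LTF on chromosome 22, between RTP3 and CCRL2, but its identifiers matched 0 of the 27607 in the files.

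Each library is 1 bovine (Bos taurus) conceptus, and no allele or transgene is named in the labels. Embryos made by fertilisation in vitro received recombinant bovine IL6 at 100 ng/ml, or the carrier alone (SOF-BE1), from day 5, and blastocysts for transfer were collected on day 7.5. The conceptuses sequenced were ovoid or tubular, the tubular form being the more elongated one. There were 6 ovoid control (3 female, 3 male), 6 ovoid IL6 (4 female, 2 male), 4 tubular control (1 female, 3 male) and 4 tubular IL6 (2 female, 2 male) conceptuses. Titles open with a code that the labels do not explain. Codes c201, c5036 and c8086 hold the controls, and c6186 and c9007 hold the IL6 conceptuses, so treatment and title code cannot be told apart.

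LTF is an iron-binding glycoprotein of the transferrin family. It is secreted in milk and by glandular epithelia, the lining of the uterus included, and is stored in the granules of neutrophils, where it takes part in innate defence. IL6 is a cytokine that signals through a receptor complex with gp130 and the transcription factor STAT3. A conceptus at elongation consists mostly of trophectoderm, with an inner hypoblast layer and the embryonic disc, and it lies free in the uterine lumen among maternal secretions.

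LTF was high in the conceptuses of title code c6186 and near the lower end of detection in the others. The 6 conceptuses of c6186 averaged 11.1 ± 4.64 CPM (SD, n = 6), where CPM is counts per 1000000 assigned counts after scaling with TMM factors. The 4 conceptuses of c9007, which had also been exposed to IL6, averaged 0.907 ± 0.486 CPM (SD, n = 4). The 10 controls averaged 0.462 ± 0.236 CPM (SD, n = 10). The ratio of means was 12.2 for c6186 over c9007, 23.9 for c6186 over controls and 1.96 for c9007 over controls. The lowest c6186 value, 2.87 CPM, lay above the highest value of the other 14 conceptuses, 1.37 CPM. Over all 14875 genes tested, 119 (0.8%) had every c6186 conceptus above the other 14, and this count is given as background. The 14 include ovoid control replicate 3, with 0 LTF counts among only 329666, too few to place it below 2.87 CPM. The share of genes with this separation when that library is left out was not counted.

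In ovoid IL6 conceptuses, replicates 1 to 4, all of c6186, measured 9.21, 12.97, 14.6 and 15.6 CPM from 42, 59, 31 and 98 counts. Replicates 5 and 6, both of c9007, measured 1.25 and 1.37 CPM from 13 and 12 counts. Within ovoid IL6 the values of the 2 title codes did not overlap. The share of all genes with such a gap was not counted, so nothing is drawn from it.

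In ovoid controls, replicates 1, 2 and 4 of c201 measured 0.725, 0.671 and 0.619 CPM, and replicates 5 and 6 of c5036 measured 0.425 and 0.642 CPM. These values came from 3 to 7 counts each. Replicate 3 of c201 had 0 counts, but it held only 329666 counts in all, which by a limit of 3 counts allows up to 9.10 raw CPM, the unscaled counts per 1000000 assigned counts. The exact 95% binomial interval reaches 11.2 raw CPM. At this depth it could not be told from the lower c6186 conceptuses, such as those at 2.68 and 8.35 raw CPM. Every ovoid IL6 value was above every ovoid control value, as for 22 of 14875 genes (0.148%), a contrast from which LTF was chosen.

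In tubular IL6 conceptuses, replicates 1 and 2 of c6186 measured 2.87 and 11.1 CPM from 13 and 70 counts. Replicates 3 and 4 of c9007 measured 0.677 and 0.334 CPM from 8 and 4 counts. In tubular controls, replicates 1 and 2 of c5036 measured 0.188 and 0.587 CPM, and replicates 3 and 4 of c8086 measured 0.305 and 0.461 CPM. The c9007 values lay inside or just above the control range, so the tubular groups overlapped. A full separation of the tubular groups with IL6 higher was seen for 356 of 14875 genes (2.39%), and LTF was not among them.

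**Figure D1:**
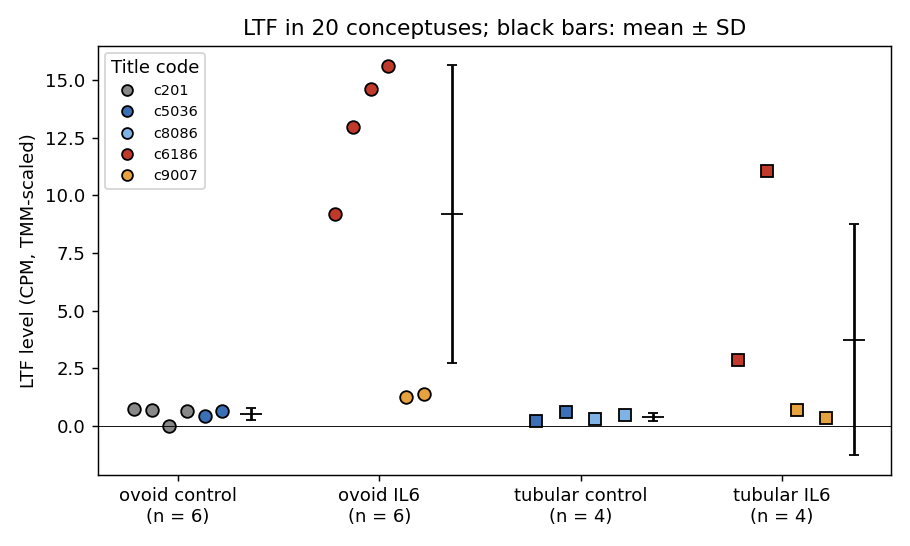
LTF level (CPM, TMM-scaled, vertical axis) in each of 20 conceptuses by shape and treatment (horizontal axis), with colour for title code and black bars for the mean ± SD of each group. The 6 points of c6186 lie between 2.87 and 15.6 CPM and all other points at or below 1.37 CPM.

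By group, the mean was 9.17 ± 6.47 CPM (SD, n = 6) in ovoid IL6 against 0.514 ± 0.272 CPM (SD, n = 6) in ovoid control, a ratio of 17.9 and a difference in mean log2 CPM of 3.20. In tubular IL6 it was 3.74 ± 5.02 CPM (SD, n = 4). Tubular controls averaged 0.385 ± 0.175 CPM (SD, n = 4), which gives a ratio of 9.70 and a log2 difference of 1.76. Without c6186 these log2 differences were 1.15 in ovoid and 0.25 in tubular conceptuses. They rested then on 2 IL6 conceptuses of c9007 in each shape. Both ovoid differences include ovoid control replicate 3, whose log2 CPM of -1.99 came from 0 LTF counts and the prior count of 2. Leaving that library out lowered the ovoid difference with c6186 from 3.20 to 2.90, and the one without c6186 was not recomputed.

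Counts pooled by title code show the depth behind these levels and are no test of the codes. All 6 c6186 libraries together gave 313 LTF counts in 28962384, or 10.8 raw CPM (exact 95% binomial interval 9.64 to 12.1). Those of c9007 gave 37 in 41500286, or 0.892 raw CPM (0.628 to 1.23), and the controls 44 in 87252906, or 0.504 raw CPM (0.366 to 0.677). The c6186 libraries thus held 79.4% of all LTF counts and 18.4% of all counts. They were also among the shallower ones, with totals of 2298491 to 6262473, against 8589036 to 11366747 in c9007. Intervals here cover counting error only, not the spread between conceptuses.

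Among the c6186 conceptuses, tubular IL6 replicate 1 stood lowest, at 2.68 raw CPM (exact 95% interval 1.43 to 4.59). The next, ovoid IL6 replicate 1, was at 8.35 raw CPM (6.02 to 11.3), so their intervals did not overlap. The intervals of the 3 highest, ovoid IL6 replicates 2, 3 and 4, overlapped one another, and their order is within counting error. In c9007 the ovoid conceptuses, at 1.26 and 1.40 raw CPM, had intervals that overlapped those of ovoid control replicates 1 and 2, at 0.722 and 0.725 raw CPM.

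Per kilobase of exon, LTF was a gene of low level even where it was high. In c6186 it reached 0.922 to 5.02 RPKM (CPM per kilobase), above 15.4% to 35.7% of the 14875 genes tested in the same library. In the other libraries with over 1000000 counts it was at 0.0605 to 0.439 RPKM, above 0.713% to 7.94% of genes. In bulk tissue, few cells with much LTF RNA and many cells with little cannot be told apart. By the ratio of mean CPM of c6186 over the other 14 conceptuses, 18.8 for LTF, 5 of 14875 genes stood higher. LTF was chosen on such values, so this rank is a description. It also depends on ovoid control replicate 3, which held 329666 counts in all and 0 of LTF. Other genes can be very high in that shallow library, such as ENSBTAG00000020060 at 854 CPM, which lowers their ratio.

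Shape was compared within each treatment in 1 edgeR fit over all genes. Among controls, the tubular minus ovoid log2 fold change of LTF was -0.57 ± 0.96 (SE, edgeR adjusted p = 0.9998). Among IL6 conceptuses it was -1.32 ± 0.82 (SE, edgeR adjusted p = 0.99997), with lower values in tubular forms. Neither passed the threshold of an adjusted p under 0.05. In both comparisons edgeR called 0 of 14875 genes (0%), with 244 and 417 genes below 0.05 before adjustment. DESeq2 also called 0 in both, with 402 and 651 below 0.05 before adjustment.

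Within both IL6 title codes the tubular mean was below the ovoid mean, with overlap in c6186 and none in c9007. The c9007 gap rests on 2 conceptuses of each shape. The share of all genes with such a gap was not counted, so nothing is drawn from it. The ovoid conceptuses of c6186 averaged 13.1 ± 2.82 CPM (SD, n = 4) and its tubular ones 2.87 and 11.1 CPM. In c9007 the ovoid conceptuses were at 1.25 and 1.37 CPM and the tubular ones at 0.334 and 0.677 CPM. With title code as a fixed term, the log2 fold change was -1.06 ± 0.39 (SE, edgeR adjusted p = 0.981). In the fit without title code, leaving out tubular IL6 replicate 2 gave -3.17 ± 0.85 (SE, edgeR adjusted p = 0.987).

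Between males and females the log2 fold change was -0.11 ± 0.66 (SE, edgeR adjusted p = 0.996), in a comparison where 8 of 14875 genes (0.0538%) were called. Its sign was not stable, since it became 0.56 without tubular IL6 replicate 2 and 0.18 without c6186. With title code as a fixed term the sign was kept, at -0.43 ± 0.32 (SE, edgeR adjusted p = 0.787). Within c6186 the 3 males averaged 8.35 ± 5.11 CPM (SD, n = 3) and the 3 females 13.8 ± 2.39 CPM (SD, n = 3), and their values overlapped.

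LTF is also a secretory gene of the uterus, and maternal tissue attached to a conceptus could carry it. Lists of uterine epithelium, stroma, blood, neutrophil, trophectoderm, hypoblast and epiblast markers, and of iron, lactoferrin receptor, IL6 pathway and defence genes, held 98 symbols. None (0) could be paired with an identifier of the files. The labelled tissue therefore could not be checked against its markers, and levels of maternal cell markers beside LTF were not measured.

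Genes with RNA mainly in females were read in the male conceptuses, where their level can come from female cells or from the male conceptus itself. Of the 8 genes called between the sexes, 2 on chromosome X were at least 8-fold higher in females, and they were chosen after their values were seen. They are ENSBTAG00000054758 (chromosome X, 77186632 to 77186757) and ENSBTAG00000049740 (chromosome X, 77163652 to 77163736), short annotated models that lie close together. Their log2 fold changes, male minus female, were -5.14 ± 0.45 and -4.76 ± 0.46 (SE, edgeR adjusted p = 1.06e-05 and 2.65e-05). Their summed level in the 10 females had a median of 38.9 raw CPM, and the lowest female was at 20.2 raw CPM.

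The 2 ovoid males of c6186 had the highest levels of these X genes among the 10 males. Ovoid IL6 replicate 1 held 18 summed counts, 3.58 raw CPM (exact 95% interval 2.12 to 5.65), which is 9.20% of the female median. Ovoid IL6 replicate 2 held 17 counts, 3.74 raw CPM (2.18 to 5.99), or 9.62% of it. The third male of c6186, tubular IL6 replicate 1, held 4 counts, 0.826 raw CPM (0.225 to 2.11), or 2.12%. The same 3 males measured 9.21, 12.97 and 2.87 CPM of LTF.

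The other 7 males held 1 to 12 summed counts, 0.238% to 3.71% of the female median. The highest of them was ovoid control replicate 1, at 1.44 raw CPM (0.746 to 2.52), with LTF at 0.725 CPM. Its interval overlapped those of both ovoid c6186 males. Of the genes called as higher in males, 2 on chromosome X were at least 8-fold higher. ENSBTAG00000046366 (chromosome X, 132967787 to 132970684) had 0 counts in all 10 females and 3 to 18 in the 10 males, with 6, 6 and 5 in the 3 males of c6186. ENSBTAG00000006472 (chromosome X, 133303369 to 133333184) did not mark every male. It had 3 counts each in ovoid IL6 replicate 2 and tubular IL6 replicate 1, within the female range of 0 to 14, and 55 to 303 in the other 8 males.

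Over the c6186 males, the lowest for the female-biased X genes was also the lowest for LTF, on few counts. That male, tubular IL6 replicate 1, was at 0.826 raw CPM of the X genes, against 1.44 in ovoid control replicate 1. Those intervals overlapped, and its LTF was higher, at 2.87 against 0.725 CPM. The part of RNA from female cells in the LTF level was not tested. In female conceptuses the X genes do not separate maternal from conceptus RNA.

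**Figure D2:**
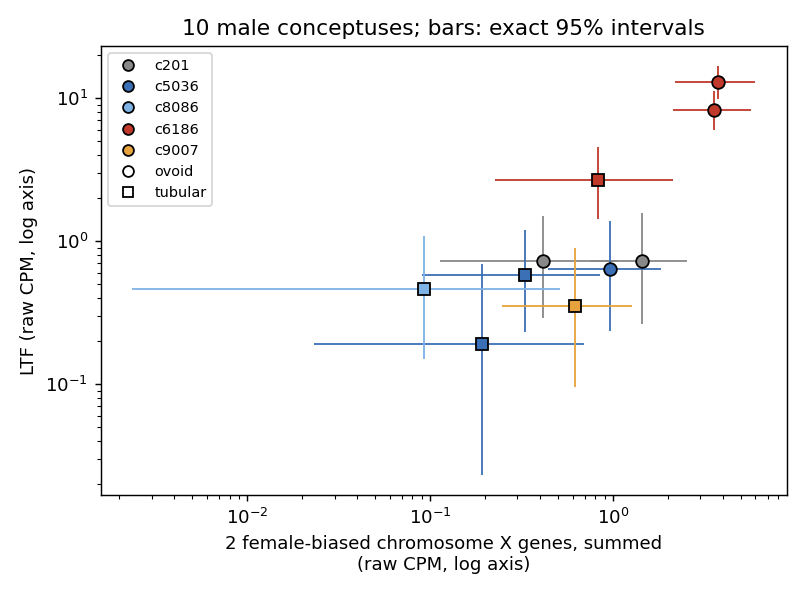
LTF (vertical, log axis) against the sum of 2 female-biased chromosome X genes (horizontal, log axis), both as raw CPM, in the 10 male conceptuses, with exact 95% binomial intervals as bars. The 2 ovoid males of c6186 lie at the upper right, at 3.58 and 3.74 raw CPM for the X genes.

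The genes next to LTF were read to see whether the neighbourhood varied with it. The nearest on the side of lower coordinates, ENSBTAG00000018767 (chromosome 22, 52927961 to 52930665, - strand), lies 21906 bases from LTF. Its mean was 6.998 ± 4.41 CPM (SD, n = 6) in c6186. That compared with 1.07 ± 0.439 CPM (SD, n = 4) in c9007 and 0.544 ± 0.447 CPM (SD, n = 10) in controls. Its values in c6186 ran from 1.77 CPM, in tubular IL6 replicate 1, to 12.7 CPM, in ovoid IL6 replicate 4, which were also the lowest and the highest for LTF. Pearson's r of its log2 CPM with LTF was 0.90 over the 19 libraries with over 1000000 counts, and 0.38 after each title code was centred on its mean.

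The next 2 genes on that side did not share the pattern. ENSBTAG00000008013 (chromosome 22, 52863612 to 52921087) had r = 0.19. It averaged 5.24 ± 2.94 CPM in the 6 conceptuses of c6186 (SD) and 6.98 ± 1.24 CPM in the 4 of c9007 (SD). ENSBTAG00000021119 (chromosome 22, 52867448 to 52872061), which lies within its span on the other strand, had r = -0.31. Counting used no strand, so reads of that overlapping pair are uncertain. The 3 nearest genes on the other side, ENSBTAG00000006155, ENSBTAG00000008099 and ENSBTAG00000013586, had 12, 27 and 12 counts over all 20 libraries and were too low to test. Of the 27 counts, 16 came from ovoid control replicate 3.

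Across the transcriptome, 279 of 14874 other genes (1.88%) had an r of at least 0.8 with LTF in log2 CPM over the 19 libraries, and 90 (0.605%) had one of at most -0.8. Conceptuses of one title code share that code, and c6186 libraries share a lower depth, so these values describe the libraries and carry no p. The 279 genes lay on 30 chromosomes, with 9 on chromosome 22, which holds 431 of all 14874. In 68 of the 279 every c6186 conceptus was above the other 14, against 118 of all 14874, and the 279 were picked for following a gene with that pattern. Their median ratio of mean CPM, c6186 over the rest, was 2.25, against 0.990 over all 14874 genes. The separation counts and these ratios took in ovoid control replicate 3, the shallow library that r left out. A gene that is high in that library alone among the 14 is not counted as separated.

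Most of the 279 genes still followed LTF when other libraries were left out, but none did without c6186. Without c9007, 276 of the 279 kept an r of at least 0.8. With 1 conceptus left out, 182 to 279 of them did. The count of 279 fell to 6 when each title code was centred on its mean and to 5 without c6186, with 0 of the 279 among either. Outside c6186, LTF had 0 to 13 counts a library, which limits any r there. Within c6186 alone, 131 of the 279 kept an r of at least 0.8. The median r of the 279 genes was 0.84 over the 19 libraries and -0.04 over the 13 libraries outside c6186. Within the 6 conceptuses of c6186 their median r was 0.78. In 186 of the 279 (66.7%) tubular IL6 replicate 1, the lowest for LTF, was also the lowest of the 6, against 24.2% of all genes. These genes were selected for following LTF, so this share supports nothing by itself.

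**Figure D3:**
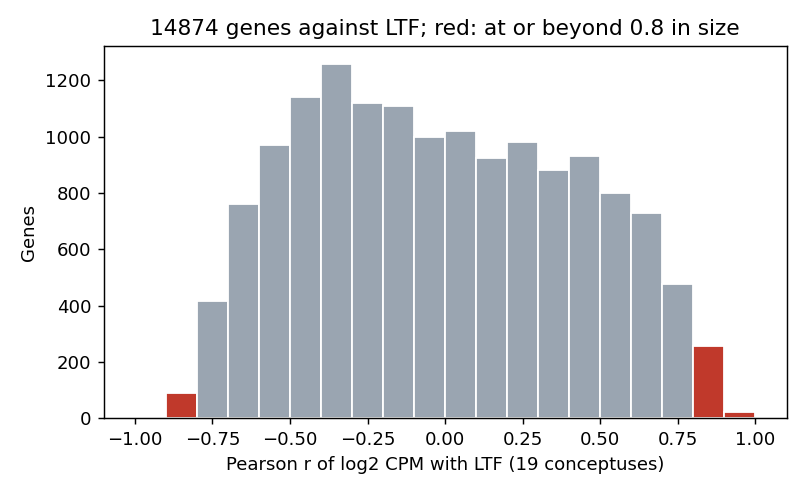
Number of genes (vertical axis) by Pearson r of their log2 CPM with that of LTF over 19 conceptuses (horizontal axis), in bins of 0.1. Red bars hold the 279 genes at or above 0.8 and the 90 at or below -0.8.

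Among genes whose log2 CPM averaged 1 or more, ENSBTAG00000020060 (chromosome 3, 21383711 to 21387865) was most like LTF, with r = 0.94 and Spearman's rho = 0.75. It measured 47.2 to 209 CPM in c6186 and 7.85 to 32.2 CPM in c9007. In controls it ran from 8.10 to 25.8 CPM in 9 libraries and reached 854 CPM in ovoid control replicate 3, the shallow library left out of r. That library had 292 counts of this gene and 0 of LTF. So the pair did not go together in every conceptus.

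ENSBTAG00000032902 (chromosome 5, 28846446 to 28868817) came next, with r = 0.94 and rho = 0.69. The 6 conceptuses of c6186 averaged 282 ± 104 CPM (SD, n = 6). Those of c9007 averaged 65.9 ± 9.81 CPM (SD, n = 4) and controls 52.1 ± 15.7 CPM (SD, n = 10). Its lowest c6186 value, 146 CPM, was that of tubular IL6 replicate 1, and its highest value elsewhere was 78.6 CPM.

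The 2 genes most opposite to LTF were ENSBTAG00000014453 (chromosome 25, 21334598 to 21345432) and ENSBTAG00000002209 (chromosome 25, 1289631 to 1302440), both with r = -0.89. ENSBTAG00000014453 averaged 75.1 ± 8.82 CPM over c6186 (SD, n = 6), and 137 ± 4.50 CPM over c9007 (SD, n = 4). Over controls it averaged 118 ± 40.9 CPM (SD, n = 10), with 11.7 CPM in ovoid control replicate 3, below every c6186 value. ENSBTAG00000002209 averaged 106 ± 11.3 CPM over c6186 (SD, n = 6), and 143 ± 3.58 CPM over c9007 (SD, n = 4). Its control mean was 135 ± 25.0 CPM (SD, n = 10), with 67.3 CPM in ovoid control replicate 3, again below every c6186 value. The ratios of c6186 over c9007 for these 2 genes, 0.550 and 0.738, were far smaller departures than the ratio of LTF.

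**Figure D4:**
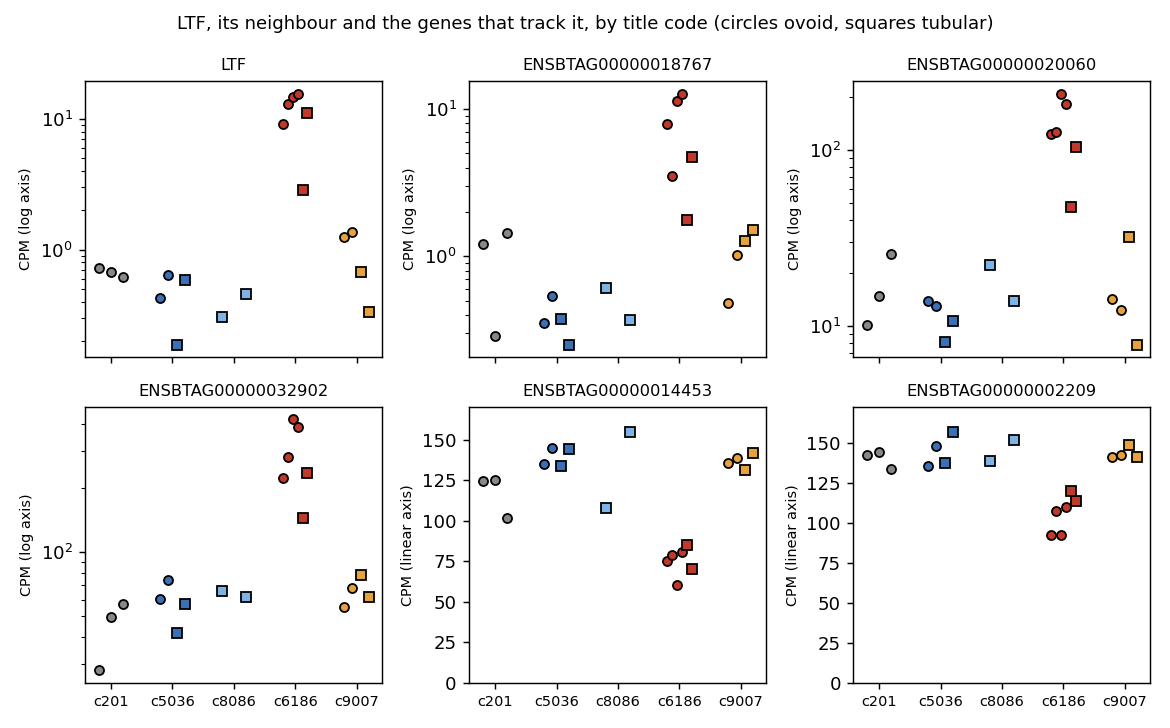
Level (CPM, vertical axes, logarithmic except for the last 2 genes) of LTF, its neighbour ENSBTAG00000018767 and the 4 named genes in 19 conceptuses by title code (horizontal axis), with circles for ovoid and squares for tubular forms. LTF, ENSBTAG00000018767 and the 2 named genes with the highest r are high in c6186, and the last 2 genes are low there.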

How the data were processed

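Total RNA of 20 whole conceptuses was sequenced, after ribosomal RNA had been removed, as 150-nucleotide read pairs, per the labels' protocols. The authors deposited raw fragment counts per gene, made with featureCounts 2.0.1 over exons of Ensembl release 105 on ARS-UCD1.2, without strand and ignoring duplicates, per the file headers. The submitters' processing notes also list HISAT2, SAMtools and Picard, with versions not given in the sources used here. Totals were 329666 to 13940103 counts.

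The default expression filter of edgeR 4.0.16 left 14875 genes, LTF among them. A quasi-likelihood model with TMM factors, 4 groups and sex was fitted to all 20 libraries, with Benjamini-Hochberg adjusted p over all genes. Each standard error is the log2 fold change over the square root of F. Log2 CPM used a prior count of 2. Other tools were Python 3.11.15, matplotlib 3.10.9, R 4.3.3 and DESeq2 1.42.0.

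Members and lists were chosen with earlier results of these data known. Named genes were the 3 neighbours on each side, and the 2 highest and 2 lowest by r among genes whose log2 CPM averaged 1 or more. The 4 chromosome X genes were added after their values were seen. Replicates are separate conceptuses.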

Additional observations from a re-analysis of the deposited data

Results flagged for a closer look

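For 6 values of the named genes that passed the low-count filter, 1 conceptus stood far from the others of its shape and treatment group, a gap that chance gives in about 1 of 20 groups. The female-biased X genes were compared within each sex and showed no such gap. Ovoid control replicate 3, the shallowest library, stood apart for 3 of them. ENSBTAG00000020060 was at 854 CPM there, with the nearest ovoid control at 25.8 CPM. ENSBTAG00000014453 was at 11.7 CPM, with the nearest at 102 CPM, and ENSBTAG00000002209 at 67.3 CPM, with the nearest at 134 CPM. Of the 3 neighbours too low to test, ENSBTAG00000006155, ENSBTAG00000008099 and ENSBTAG00000013586 were also highest in that library among ovoid controls, at 2.92, 46.8 and 5.85 CPM from 1, 16 and 2 counts. ENSBTAG00000021119, 80510 bases from LTF, was at 180 CPM in ovoid control replicate 1, with the nearest at 57.9 CPM, and at 424 CPM in ovoid IL6 replicate 1, with the nearest at 99.6 CPM. ENSBTAG00000018767, 21906 bases from LTF, was at 4.75 CPM in tubular IL6 replicate 2, with the next tubular IL6 conceptus at 1.77 CPM.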

How the results depend on the processing

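The shape comparisons of LTF kept their sign and did not pass under DESeq2, RLE factors, no filter on low counts, a filter of CPM above 1 in 4 or more libraries, no sex term, title code as a fixed term, or without c6186 or c9007, the last 2 chosen after seeing the data. Their log2 fold changes ran from -0.63 to -0.21 among controls and from -1.42 to -0.96 among IL6 conceptuses, with adjusted p from 0.861 to 1. With 1 conceptus left out they ran from -0.87 to -0.35 and from -3.17 to -0.86. Between the sexes DESeq2 called 88 genes and edgeR 8. The male minus female value of LTF turned to 0.18 without c6186, and ran from -0.35 to 0.56 with 1 conceptus left out. The ovoid IL6 minus control log2 difference became 1.15 without c6186. It ran from 2.90 (without ovoid control replicate 3) to 3.62 with 1 conceptus left out. The tubular one ran from 0.95 (without tubular IL6 replicate 2) to 2.37. The 279 genes that follow LTF became 29 with Spearman's rho, 97 with all 20 libraries, 144 centred on shape and treatment groups, 6 centred on title codes, and, chosen after seeing the data, 5 without c6186, 420 without c9007 and 505 within c6186 alone, where 6 libraries give large r by themselves. Leaving out 1 conceptus gave 188 to 381 genes. The X genes in c6186 males exceeded those of other males by 2.14 raw CPM, and by 1.62 to 3.08 with 1 male left out. Causes of these shifts were not tested. With 3 to 7 counts in most controls, the size of any fold against them is uncertain. Individual conceptuses could not be paired, because the labels give the groups no shared replicate numbers. Title codes c5036, c6186 and c9007 each held both shapes. Shape was compared within title codes only through the fit with title code as a fixed term.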
